A study of Mus musculus with 8 samples.

Results

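Serpina3n, Saa3, Lcn2, Steap4, Socs3, Cebpb, Cebpd and Il1r1 are 8 of the 22180 genes measured by a probe set with a single symbol, and they are described here as a set of inducible acute-phase genes. They were listed by symbol and chosen from measured levels, since earlier readings of these arrays placed them low in cultured hepatic stellate cells and near their quiescent level after carbon tetrachloride (CCl4). Their levels in the 4 groups are therefore a description, with no p-value, and how many passed the call used for other genes is given once, only beside the share of all genes that did. Stellate cells sit around the liver sinusoids, store vitamin A at rest, and turn into matrix-secreting myofibroblasts on injury or on plastic. All cells were primary stellate cells of BALB/c mice, with no genetic change named. The 4 groups were quiescent cells of healthy mice taken at 0 hours without seeding, such cells after 10 days in plastic dishes, and cells taken without seeding from mice with fibrosis after 2 weeks or 4 weeks of CCl4, a hepatotoxin. Each group had 2 arrays, and nothing in the labels ties the 2 to separate animals or cultures; the p-values below therefore reflect the spread between these samples alone, which may be technical. A shared protocol on all 8 samples names 2.5 mM valproic acid, begun 2 hours after seeding, a step that 3 of the 4 groups cannot have had, and the labels leave unclear if it was applied to the cultured cells. All comparisons with quiescent cells share the 2 quiescent arrays.

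The acute-phase response is the change in secreted defence proteins that follows injury or infection. Interleukin-1 (IL-1) and tumour necrosis factor act through NF-kB, and interleukin-6 (IL-6) and its relatives act through the receptor subunit gp130 and STAT3; the C/EBP factors beta and delta act together with both. Hepatocytes make most circulating acute-phase proteins, while a smaller group of inducible genes, among them Saa3, Lcn2 and Serpina3n, is also made in fibroblasts, macrophages, astrocytes and epithelia. Among the 8 genes, Il1r1 is a receptor, Cebpb and Cebpd are transcription factors, Socs3 is a feedback inhibitor of the gp130 route, and Serpina3n, Saa3, Lcn2 and Steap4 are effectors.

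All levels are log2 RMA values on a scale that is relative between arrays, so 1 unit is a factor of 2 and a shift common to most genes is hidden. Array medians lay between 4.63 and 4.72. The background guide was 4.76, the 95th percentile of 1390 olfactory and vomeronasal receptor genes (their median was 3.22). A difference from a group with an array within that guide is a lower bound on its size, and such differences have no order among themselves. All 15 stellate cell markers were above that guide on both arrays of each unseeded group, and 10 of 15 were in culture, where Colec11, Colec10, Ngfr, Cygb and Vipr1 were not. The 2 quiescent arrays stood further apart than the pairs of the other groups. Of the 22180 genes, 565 differed by over 2-fold between them, against 158 for the culture pair, 117 for the 2-week pair and 56 for the 4-week pair.

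All 8 genes were lower in culture than in quiescent cells and than at either CCl4 time, on every array of each group. They were chosen with their low culture levels known, and the share of all genes so separated was not counted. The median difference of the 8 genes between culture and quiescent cells was -4.78 log2 units, and that of all genes was 0.01. Stellate cell markers were low in culture too: 12 of 15 fell and 1 rose, with a median of -4.64. At each CCl4 time 2 of the 15 rose. At 2 weeks 6 of the 15 fell (2 without 2-week replicate 1) and at 4 weeks 7 fell (3 without either 4-week array in turn), with medians of -0.52 and -0.58. After CCl4 the median of the 8 differed from quiescent by -0.15 at 2 weeks and by -0.08 at 4 weeks, while their own differences ran from -1.14 to 1.31 and from -1.21 to 2.00. In culture 8 of 8 passed the call used throughout (limma, Benjamini-Hochberg adjusted p under 0.05), all lower; of all genes 23.2% were called there, 12.9% higher and 10.3% lower. At 2 weeks 1 of 8, Cebpd, was called, as lower; of all genes 4.77% were called, 2.34% higher and 2.43% lower. At 4 weeks 2 of 8, Socs3 and Cebpd, were called lower; of all genes 8.71% were called, 4.04% higher and 4.67% lower. Culture set against the mean of both CCl4 times called 8 of 8 lower; of all genes 21.3% were called, 12.6% higher and 8.72% lower. These calls come from the readings that chose the genes, and nothing is read from them. By their levels, Socs3 and Cebpd lay below both quiescent arrays on all 4 CCl4 arrays, and the CCl4 means of Lcn2 were below its quiescent mean by a like amount, with a wide quiescent pair, so "kept after CCl4" is a loose name for these 3 genes. As bulk RNA was measured, fewer cells of a type and less RNA per cell cannot be told apart.

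**Figure D1:**
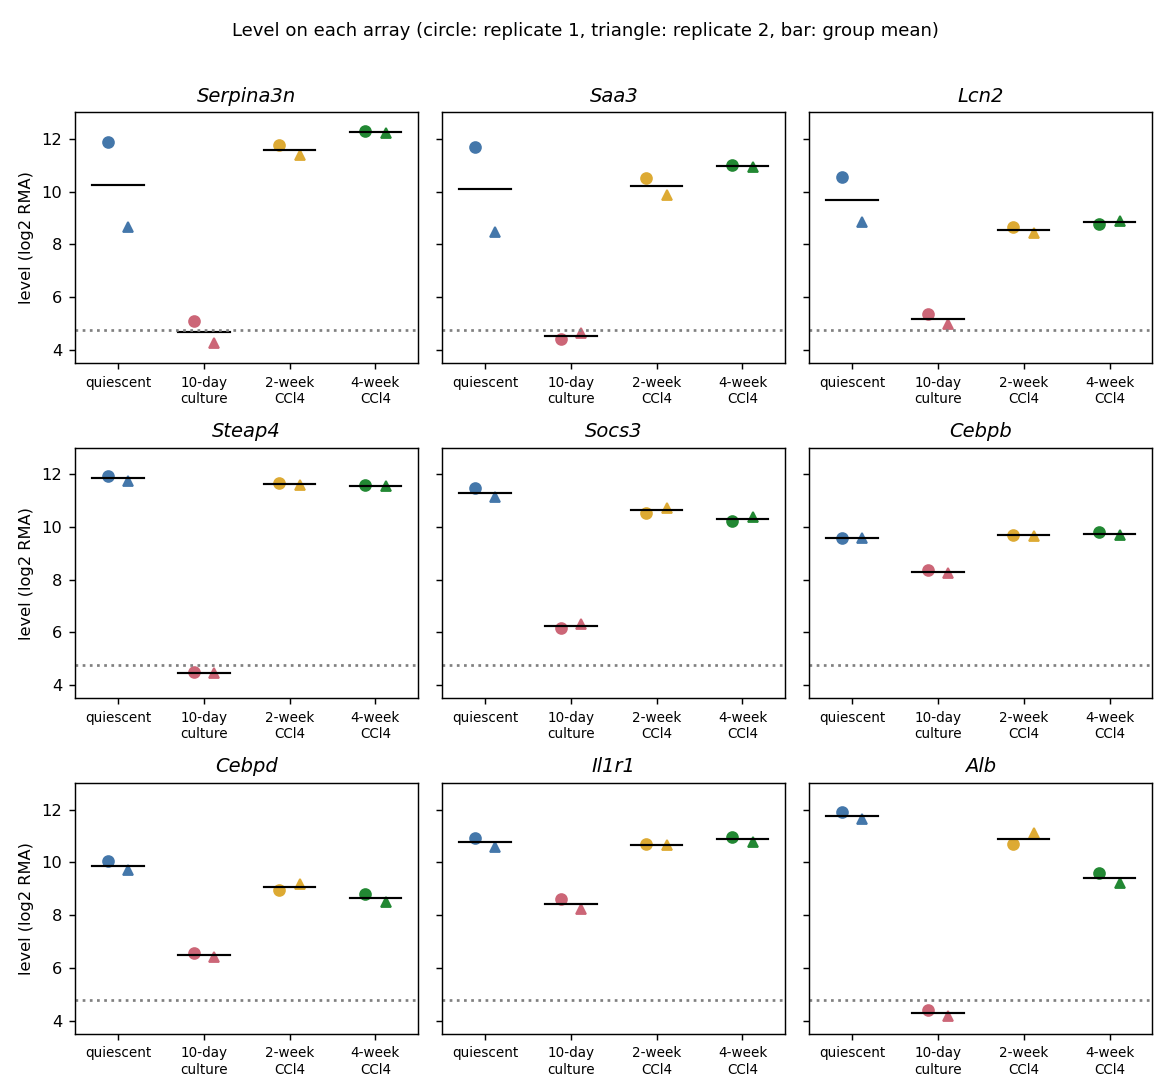
Level (log2 RMA) of each of the 8 genes and of Alb on each of the 8 arrays, by group; circles are replicate 1, triangles replicate 2, bars group means, and the dotted line is the background guide of 4.76. Culture lies lowest for every gene, and the 2 quiescent arrays lie wide apart for Serpina3n, Saa3 and Lcn2.

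The effectors come first, with the stretch before their RefSeq start sites, because they include the genes with the highest CCl4 levels relative to quiescent and those whose quiescent arrays lay apart. Saa3 encodes a serum amyloid A protein made mainly outside the hepatocyte, Serpina3n a serine protease inhibitor, and Lcn2 a lipocalin that binds bacterial siderophores. Steap4 encodes a metalloreductase of the cell membrane that reduces iron and copper. Saa2, a neighbouring serum amyloid A gene made mainly by hepatocytes, is added because its levels differed from those of Saa3. The sequences are from RefSeq (GRCm38.p6) and run 5′ to 3′ on the gene's strand up to the base before the start site; that of Serpina3n is the first 188 bases of its window of 250, the rest of which lies within the annotated gene, and that of Saa3 lies inside the span of a longer annotated transcript. Capitals mark matches on either strand to TTNNGNAA (C/EBP), to TTCNNNGAA (STAT), or to GGGA and CC parted by any 4 bases (NF-kB).
Saa3 (chr7:46715677-46715926, minus strand): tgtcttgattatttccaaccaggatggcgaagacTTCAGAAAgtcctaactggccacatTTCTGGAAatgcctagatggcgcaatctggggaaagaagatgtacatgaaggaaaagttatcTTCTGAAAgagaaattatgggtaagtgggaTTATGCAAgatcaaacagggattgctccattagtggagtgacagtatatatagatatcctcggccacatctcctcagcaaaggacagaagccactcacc
Saa2 (chr7:46751583-46751832, plus strand): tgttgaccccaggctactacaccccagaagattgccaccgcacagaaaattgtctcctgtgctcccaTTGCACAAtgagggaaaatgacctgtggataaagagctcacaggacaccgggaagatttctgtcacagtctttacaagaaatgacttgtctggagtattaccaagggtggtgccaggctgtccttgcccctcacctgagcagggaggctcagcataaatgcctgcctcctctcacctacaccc
Serpina3n (chr12:104406458-104406645, plus strand): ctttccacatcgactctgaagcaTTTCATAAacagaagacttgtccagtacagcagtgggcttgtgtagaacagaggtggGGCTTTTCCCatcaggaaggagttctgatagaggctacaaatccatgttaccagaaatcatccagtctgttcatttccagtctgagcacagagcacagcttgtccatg
Lcn2 (chr2:32387740-32387989, minus strand): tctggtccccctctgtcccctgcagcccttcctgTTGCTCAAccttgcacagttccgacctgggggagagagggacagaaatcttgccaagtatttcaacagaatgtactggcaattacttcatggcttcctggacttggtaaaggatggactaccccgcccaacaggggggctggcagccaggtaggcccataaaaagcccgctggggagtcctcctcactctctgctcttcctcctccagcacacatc
Steap4 (chr5:7960222-7960471, plus strand): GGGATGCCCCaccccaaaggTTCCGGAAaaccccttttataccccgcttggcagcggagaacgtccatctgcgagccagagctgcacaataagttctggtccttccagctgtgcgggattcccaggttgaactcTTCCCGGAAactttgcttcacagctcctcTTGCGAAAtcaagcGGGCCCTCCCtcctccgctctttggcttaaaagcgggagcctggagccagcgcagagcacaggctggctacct

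Saa3 held 4 C/EBP matches in its 250 bases and Saa2 held 1. Lcn2 held 1 C/EBP match. Steap4 held 2 C/EBP matches, 1 STAT match and 2 NF-kB matches. Serpina3n held 2 C/EBP and 2 NF-kB matches over its whole window, of which 1 each lies in the printed stretch. Of the 8 genes, 7 had an entry. The C/EBP letters occurred in 5 of these 7 (36.8% of all 32851 windows of that length), the STAT letters in 2 (7.02%), Steap4 and Socs3, and the NF-kB letters in 4 (17.6%), Steap4, Serpina3n, Socs3 and Cebpb. No matches to different motifs overlapped in these windows. A match is a description of letters and not evidence of binding.

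Serpina3n read 11.88 and 8.65 in the quiescent arrays, 5.10 and 4.27 in culture, 11.77 and 11.39 after 2 weeks of CCl4, and 12.30 and 12.22 after 4 weeks. The 4 CCl4 arrays lay close together near the higher quiescent array, and 1 of the 2 culture arrays was within the background guide. Culture minus quiescent was -5.58 ± 0.81 log2 units (difference of means ± SE of the fit, n = 2 against 2), a 47.9-fold difference. The 4-week mean was 2.00 ± 0.81 above the quiescent mean. That last value depended on which quiescent array it was set against: it was 3.61 without quiescent replicate 1 and 0.38 without quiescent replicate 2. At 2 weeks the mean difference of 1.31 became 2.93 without quiescent replicate 1, and -0.30, with its direction turned, without quiescent replicate 2. In culture the difference was -3.97 without replicate 1 and -7.20 without replicate 2.

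Saa3 followed the same layout, with 11.69 and 8.48 in quiescent cells, 4.43 and 4.65 in culture, 10.50 and 9.89 at 2 weeks, and 11.02 and 10.95 at 4 weeks. All 4 CCl4 arrays lay between the 2 quiescent arrays, and both culture arrays lay within the background guide, so the measured difference is bounded by background. Culture minus quiescent was -5.54 ± 0.79 (46.6-fold). Its CCl4 differences from quiescent were 0.11 ± 0.79 and 0.90 ± 0.79. Without quiescent replicate 1 they were 1.72 and 2.51, and without quiescent replicate 2 they were -1.50 and -0.71, so their direction rested on the choice of quiescent array. The culture difference was -3.94 and -7.15 in the same order.

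Lcn2 read 10.55 and 8.84 in quiescent cells, 5.37 and 4.99 in culture, 8.67 and 8.44 at 2 weeks, and 8.76 and 8.90 at 4 weeks. The lower quiescent array overlapped the 4-week arrays and the higher did not. Culture minus quiescent was -4.51 ± 0.44 (22.8-fold), and the CCl4 differences were -1.14 ± 0.44 and -0.86 ± 0.44. Without quiescent replicate 1 the CCl4 differences were -0.29 and -0.01, and without quiescent replicate 2 they were -1.99 and -1.71. The culture difference was -3.66 and -5.36 in that order. All 4 CCl4 arrays thus lay near the lower quiescent array, unlike those of Serpina3n.

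Probe sets of other genes in the same clusters can share sequence with those of Serpina3n and Saa3. Serpina3a, Serpina3b and Serpina3j read between 3.20 and 3.82 on all arrays, within the background guide, and Serpina3i read 5.63 on quiescent replicate 1 and 4.33 on quiescent replicate 2. Serpina3g, Serpina3k, Serpina3m and Saa1 had no probe set with a single symbol, so signal shared with them cannot be told apart from that of Serpina3n and Saa3.

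Steap4 had tight pairs throughout, at 11.95 and 11.74 in quiescent cells, 4.50 and 4.45 in culture, 11.65 and 11.60 at 2 weeks, and 11.59 and 11.55 at 4 weeks. Culture lay within the background guide on both arrays, and its measured difference from quiescent, -7.37 ± 0.14 (165-fold), is therefore a lower bound on the size. After CCl4 the differences were -0.22 ± 0.14 and -0.27 ± 0.14, with no overlap between the CCl4 and quiescent arrays but differences of at most 1.21-fold. The other members of its reductase family, Steap1, Steap2 and Steap3, were listed as its relatives and were tested. Steap1 was within the background guide on both quiescent arrays (4.58 and 3.99), so its rises are lower bounds. It rose by 3.70 ± 0.21 in culture (adjusted p = 6.55e-06), by 2.14 ± 0.21 at 2 weeks (adjusted p = 0.00101) and by 2.60 ± 0.21 at 4 weeks (adjusted p = 0.000282). Steap2 rose by 3.13 ± 0.14 in culture (adjusted p = 1.7e-06), 1.55 ± 0.14 at 2 weeks (adjusted p = 0.000598) and 2.33 ± 0.14 at 4 weeks (adjusted p = 5.55e-05). Steap3 fell in culture by 0.84 ± 0.21 (adjusted p = 0.0198), a call lost in the fits that left out quiescent replicate 2 or either culture array (adjusted p between 0.0687 and 0.103). Steap3 read 4.61 and 5.17 in quiescent cells and 4.00 and 4.11 in culture, so its fall lay near the background guide. Steap1 and Steap2 thus went up in the culture group in which Steap4 lay within the background guide.

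**Figure D2:**
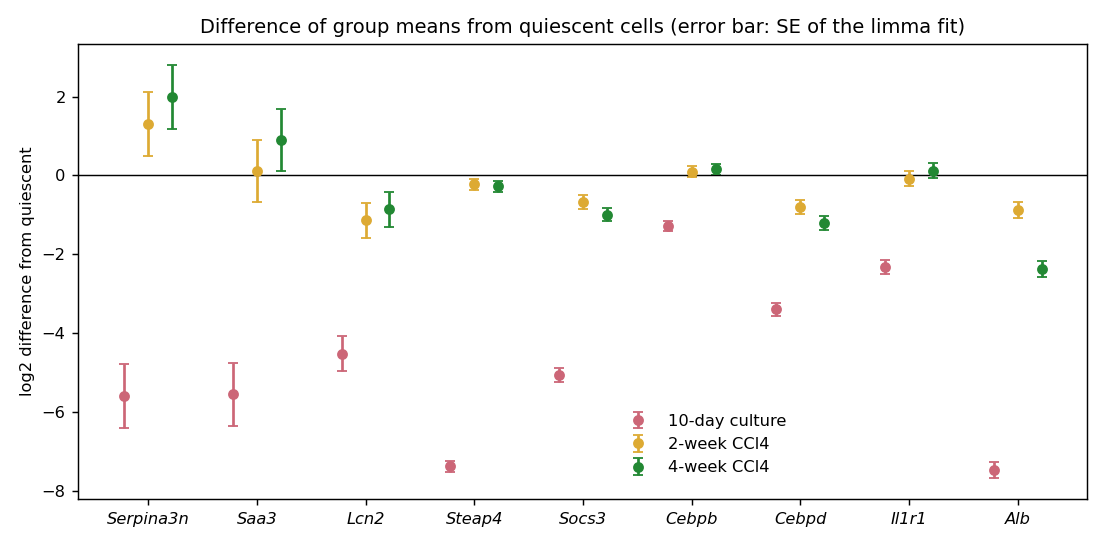
Log2 difference of each group mean from the quiescent mean for the 8 genes and Alb; points are differences between means of 2 arrays and bars are standard errors of the limma fit. After CCl4 Steap4, Cebpb and Il1r1 lie between -0.27 and 0.15 and Socs3 and Cebpd lie lower, while Alb lies at -2.36 at 4 weeks.

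The quiescent arrays lay closer together for the regulators than for the secreted effectors. Cebpb encodes the factor C/EBP beta and read 9.57 and 9.59 in quiescent cells, 8.37 and 8.24 in culture, 9.70 and 9.67 at 2 weeks, and 9.80 and 9.68 at 4 weeks. Its culture difference of -1.28 ± 0.13 (2.42-fold) was the smallest of the 8, and both culture arrays lay well above the background guide. After CCl4 it was 0.10 ± 0.13 and 0.15 ± 0.13 above quiescent, about the size of its SE. Cebpd encodes C/EBP delta and read 10.04 and 9.70 in quiescent cells, 6.55 and 6.40 in culture, 8.97 and 9.17 at 2 weeks, and 8.81 and 8.51 at 4 weeks. Its groups did not overlap: culture minus quiescent was -3.39 ± 0.18, and the CCl4 differences were -0.80 ± 0.18 and -1.21 ± 0.18, 1.74-fold and 2.32-fold lower. The 2 C/EBP genes thus parted after CCl4.

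Socs3 encodes a suppressor of gp130 signalling. It read 11.48 and 11.12 in quiescent cells, 6.17 and 6.32 in culture, 10.53 and 10.73 at 2 weeks, and 10.23 and 10.39 at 4 weeks. All groups were apart, in the order quiescent, 2 weeks, 4 weeks and culture. Culture minus quiescent was -5.05 ± 0.17 (33.2-fold), and the CCl4 differences were -0.67 ± 0.17 and -0.99 ± 0.17. A dimmer Socs3 probe set read 9.22 and 8.86 in quiescent cells, 5.96 and 5.95 in culture, 8.38 and 8.76 at 2 weeks, and 8.30 and 8.45 at 4 weeks, in the same order of group means except that the 2 CCl4 times overlapped.

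Il1r1, the signalling receptor for IL-1, read 10.92 and 10.58 in quiescent cells, 8.62 and 8.24 in culture, 10.68 and 10.66 at 2 weeks, and 10.98 and 10.77 at 4 weeks. The CCl4 arrays overlapped the quiescent ones. Culture minus quiescent was -2.32 ± 0.18, 5.0-fold, and both culture arrays stayed far above the background guide. The CCl4 differences were -0.08 ± 0.18 and 0.12 ± 0.18; they were 0.09 and 0.29 without quiescent replicate 1, and -0.25 and -0.05 without quiescent replicate 2.

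Set against the mean of both CCl4 times, culture was lower for all 8 genes. The median was -3.87 and stayed between -3.93 and -3.81 whichever array was left out. The quiescent arrays do not enter these differences. Their spread does enter the SEs of the shared fit and widens those of Serpina3n and Saa3. The measured differences were -7.24 ± 0.70 for Serpina3n (151-fold), -7.12 ± 0.12 for Steap4 (139-fold) and -6.05 ± 0.69 for Saa3 (66.2-fold), lower bounds with no order among them because of background in culture. They were -4.22 ± 0.14 for Socs3 (18.7-fold), -3.51 ± 0.38 for Lcn2 (11.4-fold), -2.39 ± 0.15 for Cebpd, -2.34 ± 0.16 for Il1r1 and -1.40 ± 0.11 for Cebpb, the last 3 between 2.65-fold and 5.23-fold. Serpina3n and Saa3 had wider culture differences here than against quiescent cells, which rested on quiescent replicate 2. Without it their differences from quiescent were -7.20 and -7.15, about as wide for Serpina3n and wider for Saa3. Of the other 6, Cebpb and Il1r1 were about as far here, and Lcn2, Steap4, Socs3 and Cebpd less far.

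Between 2 and 4 weeks of CCl4 the 8 genes differed little: the median difference was 0.13, from -0.41 for Cebpd to 0.79 for Saa3, and few genes at all were called in that comparison (0.0857% of them, 0.0271% higher and 0.0586% lower). Serpina3n was 0.68 ± 0.81 and Saa3 0.79 ± 0.79 higher at 4 weeks, with SEs widened by the quiescent pair that the fit shares. The 4-week arrays were above the 2-week arrays for Serpina3n, Saa3, Lcn2 and Il1r1. The share of all genes separated in this way was not counted, so nothing is read from it.

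Alb, the albumin gene of hepatocytes, was the reference for hepatocyte RNA. It read 11.90 and 11.63 in quiescent cells, 4.42 and 4.17 in culture, 10.68 and 11.12 at 2 weeks, and 9.57 and 9.23 at 4 weeks. It was within the background guide in culture and lower at 4 weeks than at 2 weeks of CCl4, with differences from quiescent of -0.86 ± 0.20 and -2.36 ± 0.20 (5.13-fold). Socs3, Cebpd and Steap4 had the same order of group means, with smaller steps after CCl4, and the other 5 genes were higher at 4 weeks than at 2 weeks. At 4 weeks each of the 8 had a difference from quiescent above that of Alb, by 1.14 for Cebpd, 1.37 for Socs3, 1.5 for Lcn2, 2.08 for Steap4, 2.48 for Il1r1, 2.51 for Cebpb, 3.26 for Saa3 and 4.36 for Serpina3n. The median difference of all genes there was -0.002, so a gene that did not change also lay above Alb. An excess over Alb is therefore not particular to the 8 genes. At 2 weeks the excess over Alb ran from -0.28 for Lcn2 to 2.18 for Serpina3n, with a median of 0.71. In culture it ran from 0.10 for Steap4 to 6.19 for Cebpb, with a median of 2.68. Alb was within the background guide on both culture arrays, so these values are bounded by background. Steap4 and Saa3 were within it on both culture arrays too, and Serpina3n on 1, so the excess of these genes has no defined size.

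The choice of Alb mattered in culture and less after CCl4. With the median of 20 hepatocyte markers that are not acute-phase genes in its place, the median excess at 4 weeks was 2.17 in place of 2.28 and at 2 weeks 0.79 in place of 0.71. In culture it was -1.52, with its direction turned. The summed level of these markers (log2 of the linear sum) was 13.92 to 14.54 in quiescent cells, 12.997 to 13.59 at 2 weeks, 11.83 to 12.14 at 4 weeks and 9.51 to 9.54 in culture. At 4 weeks 15 of the 20 fell (9 of 20 without either 4-week array in turn). In culture 10 of the 20, Alb among them, were within the background guide on at least 1 array. The part of hepatocyte RNA in the quiescent levels of the 8 genes was not tested.

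**Figure D3:**
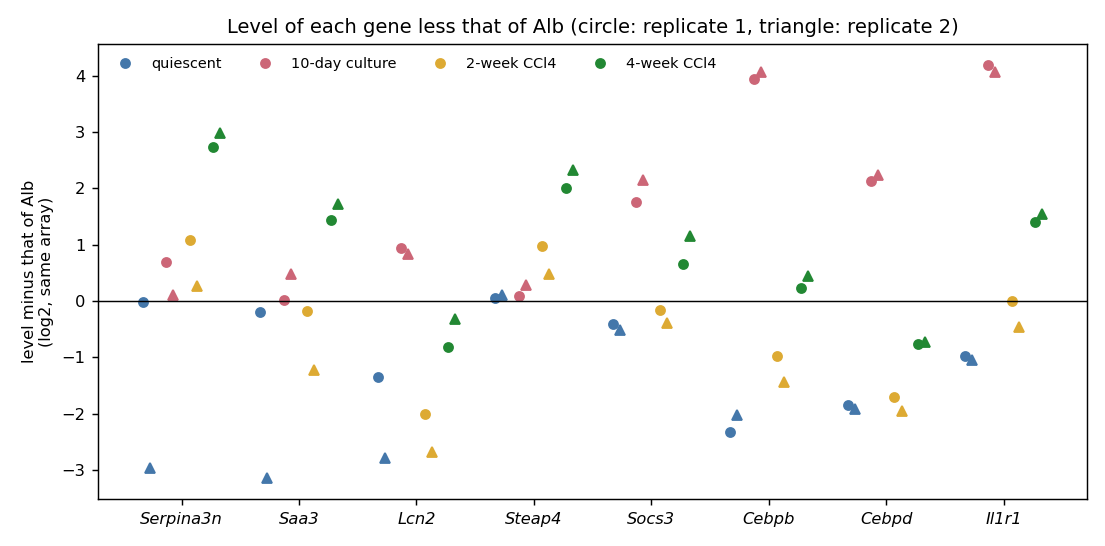
Level of each of the 8 genes minus that of Alb on the same array (log2); circles are replicate 1, triangles replicate 2. A gene's height depends on its probe set, so only shifts between groups within a gene are read: both 4-week arrays lie above both quiescent arrays for all 8 genes. Alb itself differed from quiescent by -2.36 at 4 weeks, so a gene that did not change would lie higher there too.

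The acute-phase genes made by hepatocytes were low in culture, as the 8 genes were, and most were also low after CCl4. Of 17 measured, all 17 fell in culture, with a median of -5.30, where 10.3% of all genes were called lower. At 4 weeks 13 fell, with a median of -4.05 (8 fell without either 4-week array in turn), and at 2 weeks 13 fell, with a median of -3.10 (1 without 2-week replicate 1 and 6 without 2-week replicate 2). By comparison, 2.43% of all genes were called lower at 2 weeks and 4.67% at 4 weeks. Hamp, Cp, Lbp and Serping1 were called at neither CCl4 time. Their differences at 2 and 4 weeks were -0.14 and -2.03, -0.72 and -0.53, -0.27 and -0.23, and -0.07 and -0.02. Cp and Serping1 are named after their values were seen. The culture differences of the 17 genes are lower bounds where culture was within the background guide, as for Saa2, Hp, Fgg and Hamp. Saa2 read 11.99 and 10.78 in quiescent cells, 2.71 and 2.54 in culture, 4.90 and 8.27 at 2 weeks, and 3.94 and 3.65 at 4 weeks. It fell by 7.59 ± 0.87 at 4 weeks (adjusted p = 0.00134), to within the background guide, whereas Saa3 read 11.02 and 10.95 on the same arrays. At 2 weeks Saa2 fell by 4.8 ± 0.87 (adjusted p = 0.0173), with a wide pair of arrays and a call lost without quiescent replicate 1 (adjusted p = 0.069). Hp, haptoglobin, fell by 7.31 ± 0.48 in culture (adjusted p = 1.41e-05) and by 4.00 ± 0.48 at 4 weeks (adjusted p = 0.00175). Fgg, the fibrinogen gamma chain, fell by 7.10 ± 0.48 (adjusted p = 1.5e-05) and by 5.10 ± 0.48 (adjusted p = 0.000524). Hamp, the iron hormone hepcidin, fell by 6.94 ± 0.87 in culture (adjusted p = 0.00051), and at 4 weeks read 8.31 and 8.47 against 12.21 and 8.63 in quiescent cells.

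The gap between the quiescent arrays was itself uneven across gene groups. Serpina3n (3.22) and Saa3 (3.21) were among 12 genes more than 8-fold apart between the 2 arrays, and Lcn2 was 1.70 apart; gaps as wide were found for 0.0271%, 0.0316% and 0.55% of all genes. The other genes over 8-fold higher on replicate 1 were Tmem100, Prg4, Hamp, Retnlg, Orm2, Reg3b, Reg1, Saa4 and Cxcl13, and Myl9 was 3.53 lower on it. Hepatocyte acute-phase genes had a median gap of 1.54, with 15 of 17 over 1, and hepatocyte markers outside the acute phase had 0.77, with 7 of 20 over 1. Alb differed by 0.27. Stellate cell markers had a median of -0.15. Steap4, Socs3, Cebpd and Il1r1 had gaps between 0.21 and 0.36, and Cebpb had -0.02.

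Markers of neutrophils, which store lipocalin 2 in granules, moved with that gap as well. Their median gap was 0.76, with 5 of 12 over 1, and their summed level was 10.26 to 11.99 in the quiescent arrays, 8.22 to 8.38 in culture, 10.48 to 11.64 at 2 weeks and 9.87 to 10.25 at 4 weeks. Only 5 of the 12 were above the background guide on both quiescent arrays, so part of these gaps lies near background. S100a8, a bright marker, read 11.10 and 9.20 in quiescent cells. Ngp, Ltf, Elane and Ly6g were within the background guide on at least 1 array of every group. Sinusoidal endothelial markers had a median gap of 0.90, with 5 of 12 over 1, and macrophage markers, a cell type that also makes Saa3, had -0.24. Glucocorticoid response genes had 0.48, with 3 of 10 over 1. The part of these cells in the levels of Lcn2, Saa3 and Serpina3n was not tested.

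**Figure D4:**
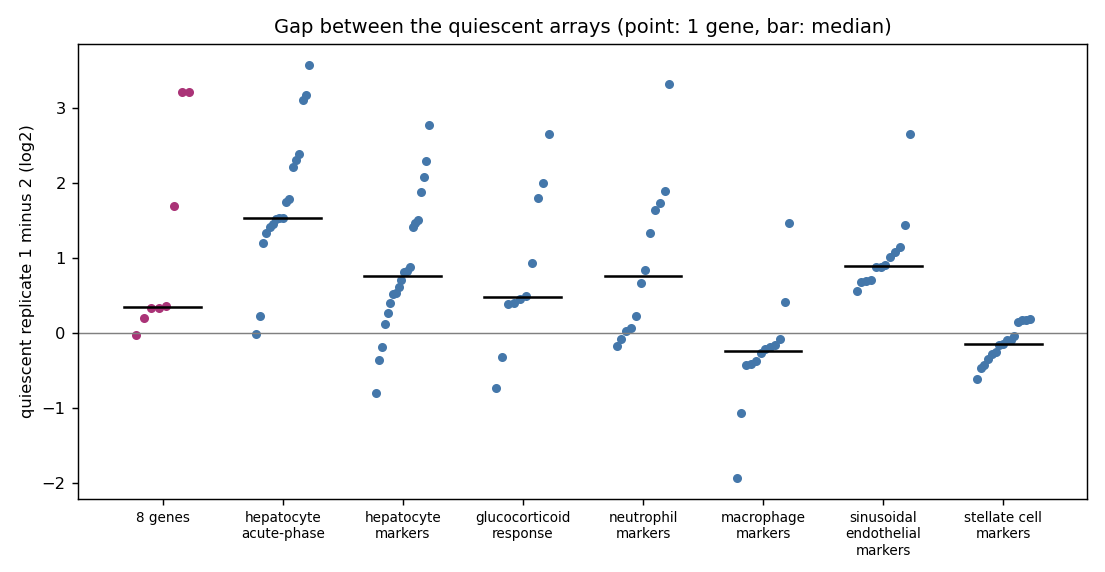
Quiescent replicate 1 minus replicate 2 (log2) for each gene of 8 groups; points are genes and bars are group medians. The hepatocyte acute-phase genes lie highest, with a median of 1.54, and 3 of the 8 genes lie above 1.

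The signalling routes known to induce these genes were followed through lists of its other members, none of them among the 8, each tested over all genes. In the IL-6 family and STAT3 list of 16 measured genes, 3 rose and 5 fell in culture (median -0.16). Those that rose were the ligands Il6 and Lif and the phosphatase Ptpn11, and those that fell were the receptor genes Lifr, Il6st and Il6ra, the kinase Jak1, and Stat3; Ptpn11, Il6ra and Jak1 are named after their values were seen. Il6 read 5.33 and 4.55 in quiescent cells, 8.45 and 8.35 in culture, 8.47 and 8.63 at 2 weeks, and 7.45 and 8.46 at 4 weeks. It rose in the other 3 groups, by 3.46 ± 0.33 in culture (adjusted p = 0.000112), 3.61 ± 0.33 at 2 weeks (adjusted p = 0.000728) and 3.02 ± 0.33 at 4 weeks (adjusted p = 0.00108). Quiescent replicate 2 was within the background guide for Il6, so these rises are lower bounds. Lif, a gp130 ligand, rose by 1.5 ± 0.25 in culture (adjusted p = 0.00223). Lifr, its receptor, fell by 3.99 ± 0.13 in culture (adjusted p = 2.87e-07), from 11.38 and 11.35 to 7.43 and 7.33, and by 0.95 ± 0.13 at 2 weeks (adjusted p = 0.00532). Il6st, which encodes gp130, fell by 1.76 ± 0.19 in culture (adjusted p = 0.000221), and Stat3 fell by 0.95 ± 0.21 (adjusted p = 0.00992), a call lost without culture replicate 2 (adjusted p = 0.0702).

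At 4 weeks of CCl4 3 genes of this list rose and 1 fell, and 1 rose without 4-week replicate 2. Those that rose were Il6, Lif, by 1.42 ± 0.25 (adjusted p = 0.00897, or 0.0836 without 4-week replicate 2), and Il11, by 1.63 ± 0.24 (adjusted p = 0.00476, or 0.0517 without it). Lifr was the one that fell, by 0.71 ± 0.13 (adjusted p = 0.0111), a call lost without either 4-week array in turn (adjusted p = 0.0701 and 0.0871). In these comparisons 4.04% of all genes were called higher and 4.67% lower at 4 weeks, and in culture 12.9% higher and 10.3% lower.

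In the list of the IL-1, TNF and NF-kB route, 13 of 26 measured genes fell in culture and 2 rose, with a median of -0.65. There 10.3% of all genes were called lower and 12.9% higher. Macrophage markers, from a cell type that makes both IL-1 ligands, fell there in 10 of 12 and rose in 1, with a median of -1.45. Their summed level was 11.64 to 11.80, against 11.88 to 12.25 in quiescent cells. Sinusoidal endothelial markers fell in 12 of 12 (median -4.04). The part of these cells in the list's change was not tested. Il1a, an IL-1 receptor ligand, read 10.23 and 9.01 in quiescent cells and 4.86 and 4.15 in culture, and fell by 5.12 ± 0.37 (adjusted p = 2.31e-05). Il1b, the other main ligand, fell by 4.24 ± 0.33 (adjusted p = 3.22e-05); both were within the background guide on at least 1 culture array, so these are lower bounds. The NF-kB inhibitor genes Nfkbia and Nfkbie, which are also NF-kB targets, fell by 2.64 ± 0.18 (adjusted p = 1.58e-05) and 2.55 ± 0.18 (adjusted p = 1.64e-05). Nfkbiz, a related NF-kB target, fell by 2.69 ± 0.23 (adjusted p = 5.39e-05). Il1rap, the co-receptor of Il1r1, went the other way and rose by 1.17 ± 0.14 (adjusted p = 0.000364). Map3k7, the kinase TAK1, rose by 0.55 ± 0.14 (adjusted p = 0.0235), a call lost without quiescent replicate 1, quiescent replicate 2 or culture replicate 1 (adjusted p between 0.0708 and 0.144), and the list's count of 2 risen genes was 1 without quiescent replicate 1 and without culture replicate 1.

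After CCl4 that list stood near quiescent, with medians of 0.05 and -0.07. By comparison, 4.77% of all genes were called at 2 weeks and 8.71% at 4 weeks. At 2 weeks the only call was Tnf, which rose by 1.34 ± 0.29 (adjusted p = 0.035), and it was lost whichever of the 4 arrays compared was left out (adjusted p between 0.0675 and 0.185). At 4 weeks Il1a fell by 2.63 ± 0.37 (adjusted p = 0.00367) and Il1rap rose by 0.98 ± 0.14 (adjusted p = 0.00346, or 0.14 over the mean of its probe sets); 3 genes fell without quiescent replicate 2 and 2 without 4-week replicate 2. Macrophage markers fell at 4 weeks in 10 of 12 (6 without 4-week replicate 1), with a median of -1.70 and a summed level of 11.06 to 11.13. Il1b read 8.31 and 8.4 in quiescent cells, 8.80 and 8.84 at 2 weeks, and 7.21 and 8.47 at 4 weeks. Set against the mean of both CCl4 times, culture had Il1b lower by at least 4.21 ± 0.28 (adjusted p = 1.54e-05).

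**Figure D5:**
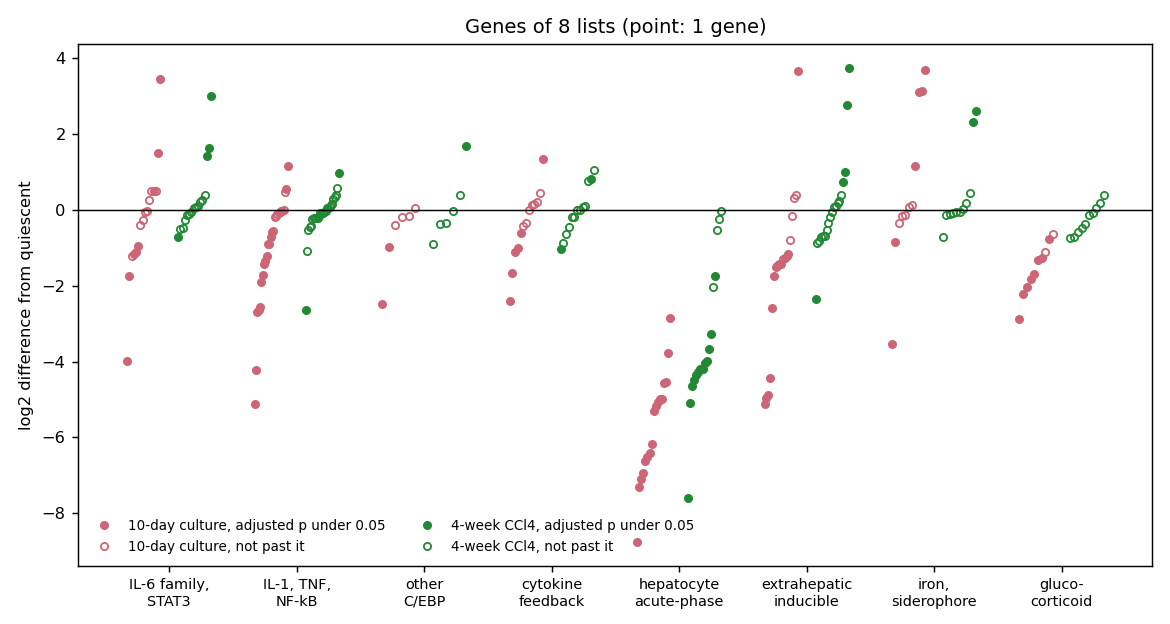
Log2 difference from quiescent of each gene of 8 lists, in culture (red) and after 4 weeks of CCl4 (green); filled points passed an adjusted p of 0.05 and open points did not. Most hepatocyte acute-phase genes lie low in both. By their medians, the IL-1, TNF and NF-kB genes lie low in culture and near 0 after CCl4.

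Other C/EBP genes with genes linked to them, and feedback genes, were few. The first list had 6 measured genes, C/EBP factors together with others such as Nfil3 and Trib1. In culture 2 of these 6 fell, where 10.3% of all genes were called lower, and that count depended on culture replicate 2. Trib1, an adaptor that directs C/EBP alpha to degradation, fell by 2.49 ± 0.28 (adjusted p = 0.000253), and Cebpa fell by 0.97 ± 0.21 (adjusted p = 0.00967, or 0.0695 without culture replicate 2). Nfil3, a repressor of the same family of basic leucine zipper factors, rose at 4 weeks by 1.68 ± 0.31 (adjusted p = 0.0115), a call lost without either 4-week array (adjusted p = 0.0736 and 0.0919). Of 13 other feedback genes of cytokine signalling, 5 fell in culture and 1 rose; 3 fell without quiescent replicate 1 and 3 without culture replicate 1, and 2 rose without quiescent replicate 2. Zfp36, which destabilises cytokine mRNAs, read 12.74 and 12.77 in quiescent cells and 10.31 and 10.41 in culture, a fall of 2.40 ± 0.14 (adjusted p = 6.83e-06), and Dusp1, a phosphatase of stress kinases, fell by 1.66 ± 0.15 (adjusted p = 6.92e-05). Socs2, a relative of Socs3, rose by 1.35 ± 0.23 (adjusted p = 0.00249).

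Of 19 other inducible acute-phase and defence genes made outside the hepatocyte, 12 fell in culture and 1 rose (2 rose without quiescent replicate 1), with a median of -1.43. There 10.3% of all genes were called lower and 12.9% higher. Cxcl1, a neutrophil chemokine, fell by 5.12 ± 0.23 (adjusted p = 1.81e-06). C4b, complement component 4, read 10.81 and 10.41 in quiescent cells, 5.51 and 5.76 in culture, 10.96 and 10.90 at 2 weeks, and 11.38 and 11.32 at 4 weeks, and fell in culture by 4.97 ± 0.17 (adjusted p = 3.8e-07). Cfb, complement factor B, fell by 4.89 ± 0.23 (adjusted p = 2.32e-06). Lrg1, a leucine-rich glycoprotein that hepatocytes also secrete, fell by 4.43 ± 0.47 in culture (adjusted p = 0.000201). At 4 weeks it fell by 2.36 ± 0.47 (adjusted p = 0.0173), a call lost without either 4-week array in turn (adjusted p = 0.143 and 0.0604). Timp1, an inhibitor of matrix metalloproteinases, was the exception and rose by 3.67 ± 0.26 in culture (adjusted p = 2.07e-05), 3.53 ± 0.26 at 2 weeks (adjusted p = 0.000259) and 3.75 ± 0.26 at 4 weeks (adjusted p = 0.000142).

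After CCl4 the median of this list was 0.23 at 2 weeks and -0.04 at 4 weeks, with calls in both directions. By comparison, 2.34% of all genes were called higher and 2.43% lower at 2 weeks, and 4.04% and 4.67% at 4 weeks. At 2 weeks 3 genes rose, Timp1, Fgl2 and Cxcl2, and 3 fell, Lrg1, Cfb and Il4ra, the fallen being at most 1 in 7 of the 8 fits that left out an array; Fgl2, Cxcl2 and Il4ra are named after their values were seen. At 4 weeks 4 genes rose and 1, Lrg1, fell; 2 rose without either 4-week array in turn, and 5 fell without quiescent replicate 2. Against the mean of both CCl4 times, culture was lower for 13 of the 19 (8.72% of all genes), among them Cxcl1 by 5.14 ± 0.20 (adjusted p = 7.72e-07), C4b by 5.51 ± 0.15 (adjusted p = 8.7e-08) and Cfb by 3.92 ± 0.20 (adjusted p = 3.47e-06).

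Lcn2 and Steap4 both bear on iron, and the list of iron and siderophore genes held 11 measured members, of which 4 rose and 2 fell in culture (1 fell without quiescent replicate 2 and without either culture array). In that comparison 12.9% of all genes were called higher and 10.3% lower. Besides Steap1 and Steap2, Tfrc, the transferrin receptor, rose by 3.11 ± 0.18 (adjusted p = 6.37e-06), from 5.53 and 5.14 to 8.43 and 8.47. Slc40a1, the iron exporter ferroportin, fell by 3.55 ± 0.26 (adjusted p = 2.34e-05). After 2 and 4 weeks of CCl4 Tfrc read between 5.17 and 5.66 and Slc40a1 between 7.74 and 8.56.

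Glucocorticoids also induce several acute-phase genes, and 8 of 10 measured glucocorticoid response genes fell in culture (5 without culture replicate 1), with a median of -1.5. Per1, a clock gene induced by the hormone, fell by 2.22 ± 0.19 (adjusted p = 6.24e-05) and Klf9, a factor it also induces, by 2.04 ± 0.28 (adjusted p = 0.000828). Zbtb16 fell by 2.88 ± 0.70 (adjusted p = 0.0161), a call lost without either culture array (adjusted p = 0.0941 and 0.0543). In culture 10.3% of all genes were called lower. After CCl4 the limma fit called 0 of the 10 at either time, where 4.77% of all genes were called at 2 weeks and 8.71% at 4 weeks. The list medians were -0.38 and -0.26. At an unadjusted p under 0.05 in that fit, 4 were lower at 2 weeks and 3 at 4 weeks. The share of all genes at that threshold was not counted, so nothing is read from these counts.

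Genes with the most similar pattern over the 8 arrays were found from the root mean square difference between mean-centred values, among 9323 genes with a group mean of at least 6. Nearest to the mean of the 8 genes were Fabp4 (0.35), a fatty acid binding protein, Adamtsl2 (0.36), Egr2 (0.37) and Fos (0.38), both immediate early genes, Lbp (0.39), the lipopolysaccharide binding protein, and Hgf (0.39), hepatocyte growth factor. Lbp is also on the list of hepatocyte acute-phase genes. Alb lay at 1.27. Hgf read 11.84 and 11.67 in quiescent cells, 6.58 and 6.56 in culture, 11.28 and 11.23 at 2 weeks, and 11.51 and 11.56 at 4 weeks. Gene by gene, C4b was nearest to Saa3 (0.77), Nr4a3 to Serpina3n (1.06), Adam23 to Lcn2 (0.23), Sparcl1 to Steap4 (0.45), Adamtsl2 to Socs3 (0.21), Runx1t1 to Cebpb (0.08), Slc29a1 to Cebpd (0.18) and Tmem176b to Il1r1 (0.11). The nearest genes to Serpina3n and Saa3 were the most distant of these, and the pair lay 0.65 from each other. Among the 8, Cebpb and Il1r1 were closest (0.44) and Serpina3n and Cebpb farthest apart (2.54).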

How the data were processed

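Transcript levels were measured on Affymetrix arrays in 4 groups of primary mouse stellate cells, 2 arrays each. The deposited values are log2, made by the authors with RMA (Affymetrix Expression Console, no version named) per the submitters' processing notes; per the labels' protocols, RNA was preamplified before labelling. RMA sets the arrays to 1 distribution, which hides a shift common to most genes. With 2 arrays a group, their number limits the precision. No source used here names the array's build.

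Of 41345 probe sets, 23521 had 1 symbol, 1814 had several and 16010 were not named here. The brightest single-symbol probe set of each gene was used. Differences were tested with limma 3.58.1 (R 4.3.3) in 1 two-sided fit of 8 arrays in 4 groups, with 4 residual and 4.75 prior degrees of freedom, and Benjamini-Hochberg adjustment over 22180 genes for each of 5 comparisons. On simulated data for culture against quiescent over 22180 genes, the fit recovered 46% of 50 changes of size 1 (log2), 94% at size 2, 98% at size 3 and 100% at size 4. It made 7 false calls. With 50 genes changed at each size, far fewer changed than the 5145 called in the data, so these rates need not hold there.

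The genes, lists and background guide were chosen with earlier results of these data known. Genes named were the 8, Alb, up to 4 called genes of each list by size with up to 2 called against its direction, Il6, Il1b, Tnf, Il6st, Il1rap, Stat3, Nfkbia, Cebpa, Saa2 and Serpina3 paralogues in any case, and the genes of most similar pattern. Promoter windows are RefSeq's. Alternatives tried were the replicate number as a block, array centring, a filter at 5 log2 units, the mean of probe sets, trend and robust options, only the groups compared, and each array left out.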

Additional observations from a re-analysis of the deposited data

How the results depend on the processing

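Counts of genes called depended on the arrays more than on the model. With only the groups compared in the fit, 372 genes were called at 2 weeks of CCl4 against quiescent, 1205 at 4 weeks and 82 between the CCl4 times, in place of 1058, 1932 and 19. Leaving out 1 array in turn, which assumes that the lone array left varies like the other groups, gave 3505 to 4962 calls for culture against quiescent, 260 to 1430 at 2 weeks, 652 to 2113 at 4 weeks, 0 to 85 between the CCl4 times and 2846 to 5225 for culture against both CCl4 times. The lowest count came without 2-week replicate 1 at 2 weeks, without 4-week replicate 1 at 4 weeks and without culture replicate 2 in the last comparison; between the CCl4 times the count was 0 in 5 of the 8 such fits.

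The median of the 8 genes ran from -5.30 to -3.80 in culture, from -0.59 to -0.01 at 2 weeks and from -0.54 to 0.07 at 4 weeks as arrays were left out, with the ends set by the 2 quiescent arrays. Less Alb, it ran from 2.30 to 3.54, from 0.41 to 0.95 and from 1.95 to 2.39. The first of these ranges, in culture, is bounded by background. With the mean of probe sets the culture median was -4.29 and less Alb 3.18, since Socs3 has a dimmer second probe set. With the median of hepatocyte markers in place of Alb the culture value was -1.52. The cause of the other shifts was not tested.

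Arrays with the same replicate number showed no shared shift: the correlation of replicate differences between groups ran from -0.04 to 0.07. Such values cannot show that no pairing exists, and the labels do not say what a shared number means. With the replicate block, 9 genes were called between the CCl4 times, and 5042, 906, 1741 and 4624 in the other comparisons, each within 1.5 times the count without it. Of the tested values printed, only Tnf at 2 weeks lost its call with the block (adjusted p = 0.0572).

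Among single genes, 34 pairs of a value and an alternative lost the call, and no tested value printed changed direction under any alternative tried.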
